A study of Homo sapiens with 6 samples.

Results

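HOX genes encode homeodomain transcription factors that specify position along the body axis of the embryo, and in human they lie in 4 clusters, HOXA, HOXB, HOXC and HOXD, in which a gene's number from 1 to 13 gives its place in the cluster. Low-numbered genes are active earlier and nearer the head, high-numbered genes later and nearer the tail, and genes that share a number in different clusters are paralogs. Their transcription is held off by Polycomb proteins and maintained by MLL histone methyltransferases. Several are deregulated in breast cancer, among them HOXB7, HOXB9 and HOXD10.

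Their expression was examined on 6 single-colour arrays of MDA-MB231, a metastatic breast cancer cell line in long use. Of these, 3 arrays carried RNA of a clone with stable knockdown of G9a, the enzyme encoded by EHMT2 that places repressive methyl marks on lysine of histone H3, and 3 carried RNA of the untreated parental cells, called control here. Both groups were grown in serum-containing medium and harvested during logarithmic growth. The knockdown is represented by 1 clone, and the control cells were untreated. What else sets this clone apart from the parental cells, by chance or by its making, cannot be told apart from the knockdown of G9a. The labels do not say that replicates came from separate cultures, so the spread that the p-values rest on may be technical.

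Members were the protein-coding genes named HOXA, HOXB, HOXC or HOXD with a number from 1 to 13 for which a probe set (the group of probes that gives 1 value) was annotated to this gene alone. There were 27 such genes among 18417 genes tested: all 10 HOXB genes, all 9 HOXD genes, 7 of the 9 HOXC genes and 1 of the 11 HOXA genes, HOXA2. Each had a single probe set. HOXC4 and HOXC6 share a probe set that cannot separate them, and the other 10 HOXA genes were not analysed here, so the HOXA cluster is represented by 1 gene. Values are log2 intensities, and differences are knockdown minus control with the standard error (SE) from limma over n = 3 arrays per group. Since probe sets differ in brightness for the same amount of RNA, levels were compared only within a gene. No detection call was used, so signal was not separated from background for any gene. The lowest 33.3% of mean values over all genes, a chosen bound and not a measured one, held 18 of the 27 members, and 9 lay above it. Below that bound signal may not be separable from background.

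As a check of the labels, EHMT2 read 9.66, 9.59 and 9.51 on the knockdown arrays, against 10.21, 10.27 and 9.93 on the control arrays. It fell by 0.55 ± 0.10 (SE) on the log2 scale (limma, adjusted p = 0.0259), to 0.681 of the control value. EHMT2 had 2 probe sets, and these values are those of the one with the higher mean. EHMT2 passed in 1 of the 6 fits with 1 array left out, the one without control replicate 3 (limma, adjusted p from 0.0101 to 0.122 over the 6). VIM, CD44, AXL and CAV1, which mark mesenchymal-like breast cancer lines, did not pass the test, with differences from -0.05 to 0.11. Among 8 luminal or epithelial markers CDH1 rose, by 0.45, and 7 did not pass, with a median of 0.09 over the 8. Among 12 markers of leukocytes, endothelium and fibroblasts the endothelial cadherin gene CDH5 rose, by 0.71. The other 11 did not pass, and the median over the 12 was 0.14. Over all genes 1.28% rose. With 1 array left out CDH1 passed in 1 and CDH5 in 2 of 6 fits. CDH1 lay in the lowest 33.3% of mean values. The part of such markers in the HOX values was not tested.

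The HOX loci also hold microRNA genes that are known to act on HOX transcripts. The miR-10 genes lie beside HOXB4 and HOXD4 and the miR-196a genes near HOXB9 and HOXC9; miR-196a is known to cleave the HOXB8 transcript, and miR-10b to repress HOXD10 in breast cancer cells. Their mature sequences (RefSeq, GRCh38.p14) are shown because 4 of these genes had probe sets of their own, with the seed, bases 2 to 8, in capitals.
hsa-miR-10a-5p (MIR10A, chr17:48579904-48579926, minus strand): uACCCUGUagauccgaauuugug
hsa-miR-196a-5p (MIR196A2, chr12:53991762-53991783, plus strand): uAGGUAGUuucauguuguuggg
The MIR196A1 gene of the HOXB cluster gives the same mature sequence (chr17:48632532-48632553, minus strand), so the 2 miR-196a genes share a seed that differs from that of miR-10a.

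A single HOX gene passed the test. HOXB9 was lower in the knockdown, and the other 26 members, across all 4 clusters, did not pass (limma, adjusted p of 0.05). Over all 18417 genes 562 passed, which is 3.05%, with 1.28% higher and 1.78% lower, so 1 call among 27 members is close to the share over all genes. An unadjusted p under 0.05 was found for 4 members, beside 19.4% of all genes. HOXB9, a group 9 gene of the HOXB cluster that is known to promote invasion and angiogenic factor expression in breast cancer cells, ranked at 235 among the 18417 genes by the size of its difference. With arrays weighted by their quality in limma, 5 members passed, HOXB9 with HOXA2, HOXB1, HOXB2 and HOXC11, beside 3328 genes in all.

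HOXB9 (Entrez gene 3219, chromosome 17, probe set 8016476) read 10.79, 10.87 and 10.80 on the knockdown arrays, against 11.29, 11.21 and 11.53 on the control arrays. All 3 knockdown arrays lay within 0.0791 of each other and below every control array, while the control arrays spread over 0.320, with control replicate 3 highest. The means were 10.82 ± 0.04 in the knockdown and 11.35 ± 0.17 in control (SD, n = 3 each). The difference was -0.52 ± 0.09 (SE; 95% interval -0.73 to -0.32; limma, adjusted p = 0.0227), which leaves 0.695 of the control level. HOXB9 lay above the lowest 33.3% of mean values. In RNA of whole cultures, fewer cells with the transcript and less transcript per cell cannot be told apart. Leaving out any 1 array kept the difference negative, from -0.59 to -0.43, but HOXB9 missed the threshold without knockdown replicate 1, 2 or 3 or control replicate 1 (adjusted p = 0.0911, 0.0569, 0.110 and 0.0535), and passed without control replicate 2 or 3 (0.0413 and 0.0229). HOXB9 also missed the threshold in a fit of all arrays with the replicate number as a block.

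The other 2 measured group 9 genes did not pass, and HOXA9 was not analysed. HOXC9 differed by 0.08 ± 0.07 (SE; 95% interval -0.07 to 0.24; limma, adjusted p = 0.553), with values of 7.30, 7.39 and 7.33 in the knockdown and 7.25, 7.17 and 7.35 in control. HOXD9 differed by 0.09 ± 0.07 (SE; 95% interval -0.08 to 0.26; limma, adjusted p = 0.540), with values of 7.65, 7.43 and 7.57 in the knockdown and 7.47, 7.41 and 7.50 in control. For both genes the groups overlapped, and both intervals lay above that of HOXB9; the difference between these genes and HOXB9 was not tested.

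**Figure D1:**
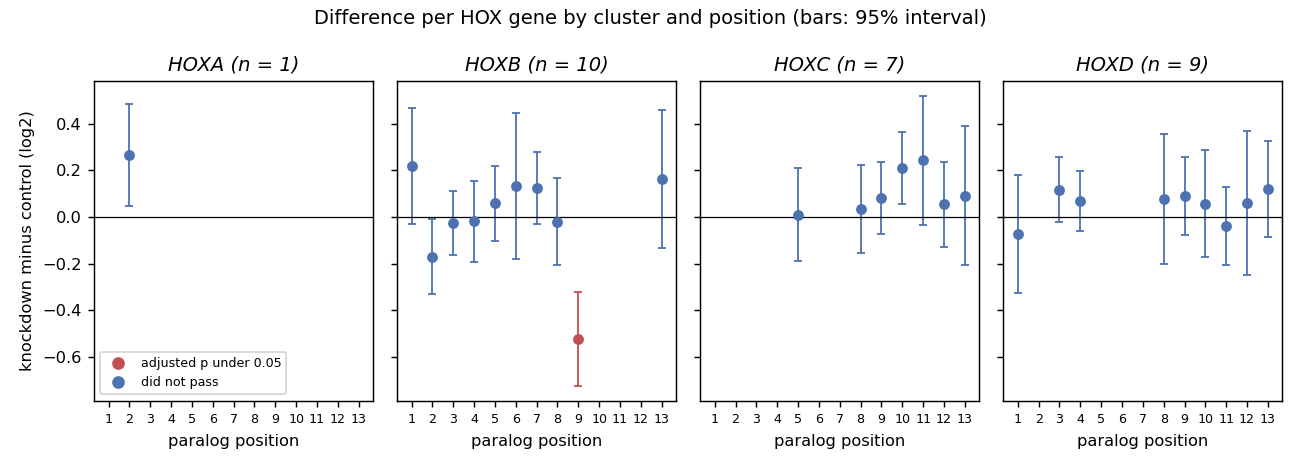
Knockdown minus control difference (log2, vertical axis) of each HOX gene against its paralog position (horizontal axis), 1 panel per cluster, with points for the limma estimate and bars for the 95% interval over 3 arrays per group. HOXB9, at -0.52, is the point that passed at an adjusted p of 0.05, and the other 26 lie between -0.17 and 0.27.

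The nearest HOX genes on either side of HOXB9 did not pass. HOXB8, a central gene and target of miR-196a, read 8.15, 7.94 and 8.01 in the knockdown, against 7.99, 7.99 and 8.18 in control, a difference of -0.02 (95% interval -0.21 to 0.17). HOXB13, the most posterior HOXB gene and a known prostate lineage factor, read 7.16, 6.72 and 6.91 in the knockdown and 6.54, 6.89 and 6.87 in control, a difference of 0.16 ± 0.13 (SE; limma, adjusted p = 0.531). Both genes had overlapping groups.

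Anterior HOXB genes differed in both directions without passing. HOXB2, a hindbrain patterning gene, read 7.22, 7.26 and 7.08 in the knockdown and 7.32, 7.33 and 7.43 in control, so that every knockdown array lay below every control array. Its difference was -0.17 ± 0.07 (SE; limma, adjusted p = 0.233). HOXB1, which specifies a hindbrain segment, read 7.65, 7.28 and 7.47 in the knockdown and 7.20, 7.14 and 7.42 in control, a difference of 0.22 ± 0.11 (SE; limma, adjusted p = 0.319). The HOXB1 groups overlapped, with knockdown replicate 1 highest.

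In the central part of the cluster, HOXB3, HOXB4 and HOXB5 lay within 0.06 of no difference. HOXB7, which is known to drive epithelial to mesenchymal transition when overexpressed in breast cells, differed by 0.13 (95% interval -0.03 to 0.28; limma, adjusted p = 0.355). HOXB6 differed by 0.13 ± 0.14 (SE), and this rested on knockdown replicate 1, which read 6.79 against 6.26 and 6.29 on the other knockdown arrays and 6.26, 6.28 and 6.41 in control. Without knockdown replicate 1 the HOXB6 difference was -0.04. Over the 10 HOXB genes, HOXB9 fell and 9 did not pass, and the median difference was 0.02.

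In the HOXC cluster 0 of 7 genes passed the test, and 1 had an unadjusted p under 0.05. All 7 differences were positive, from 0.01 to 0.24, with a median of 0.08, beside 59.6% positive over all genes. Below the chosen bound on mean values, where 6 of the 7 lay, 68.6% of all genes were positive. HOXC5, above that bound, was at 0.01. It turned negative after quantile normalization or median centring, and 4 of 7 were positive with array weights. HOXC11, a posterior gene, read 7.22, 6.82 and 6.98 in the knockdown, against 6.80, 6.57 and 6.92 in control, and differed by 0.24 ± 0.12 (SE; limma, adjusted p = 0.322). The HOXC11 groups overlapped.

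HOXC10, a posterior gene active in the limb and lumbar spinal cord of the mouse, read 6.56, 6.64 and 6.53 in the knockdown and 6.40, 6.44 and 6.28 in control. Its groups did not overlap, and the difference was 0.21 ± 0.07 (SE; limma, adjusted p = 0.137). HOXC8, HOXC5, HOXC12 and HOXC13, which in skin controls hair keratin genes, lay between 0.01 and 0.09 with overlapping groups, and HOXC5, HOXC8 and HOXC13 turned negative with some array left out. The probe set shared by HOXC4 and HOXC6 read 8.41, 8.58 and 8.49 in the knockdown and 8.53, 8.45 and 8.48 in control, a difference of 0.0078 for the pair, and was outside the genes tested.

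The HOXD genes had 0 of 9 calls and also 0 at an unadjusted p under 0.05. Differences ran from -0.07 for HOXD1 to 0.12 for HOXD13, with a median of 0.07. HOXD10, which is known to restrain migration of breast cancer cells and is a target of miR-10b, read 6.63, 6.29 and 6.49 in the knockdown, against 6.54, 6.39 and 6.31 in control, a difference of 0.06 (95% interval -0.17 to 0.29; limma, adjusted p = 0.798). It turned to -0.02 without knockdown replicate 1. HOXD3, known to raise integrin expression in endothelium, read 7.71, 7.77 and 7.67 in the knockdown and 7.58, 7.65 and 7.57 in control, and its neighbour HOXD4 read 9.17, 9.15 and 9.14 in the knockdown and 9.08, 9.05 and 9.12 in control. Both had every knockdown array above every control array, by small differences of 0.12 ± 0.06 and 0.07 ± 0.06 (SE), and neither passed (limma, adjusted p = 0.341 and 0.545). HOXD8, HOXD9, HOXD11, HOXD12 and the limb gene HOXD13 had overlapping groups.

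HOXA2, a regulator of hindbrain and pharyngeal arch identity, stood alone for its cluster. It read 6.09, 6.21 and 6.02 in the knockdown and 5.85, 5.67 and 6.01 in control. Every knockdown array lay above every control array, though knockdown replicate 3 and control replicate 3 nearly touched. The difference was 0.27 ± 0.10 (SE; 95% interval 0.05 to 0.49; limma, adjusted p = 0.181), and HOXA2 lay in the lowest 33.3% of mean values.

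**Figure D2:**
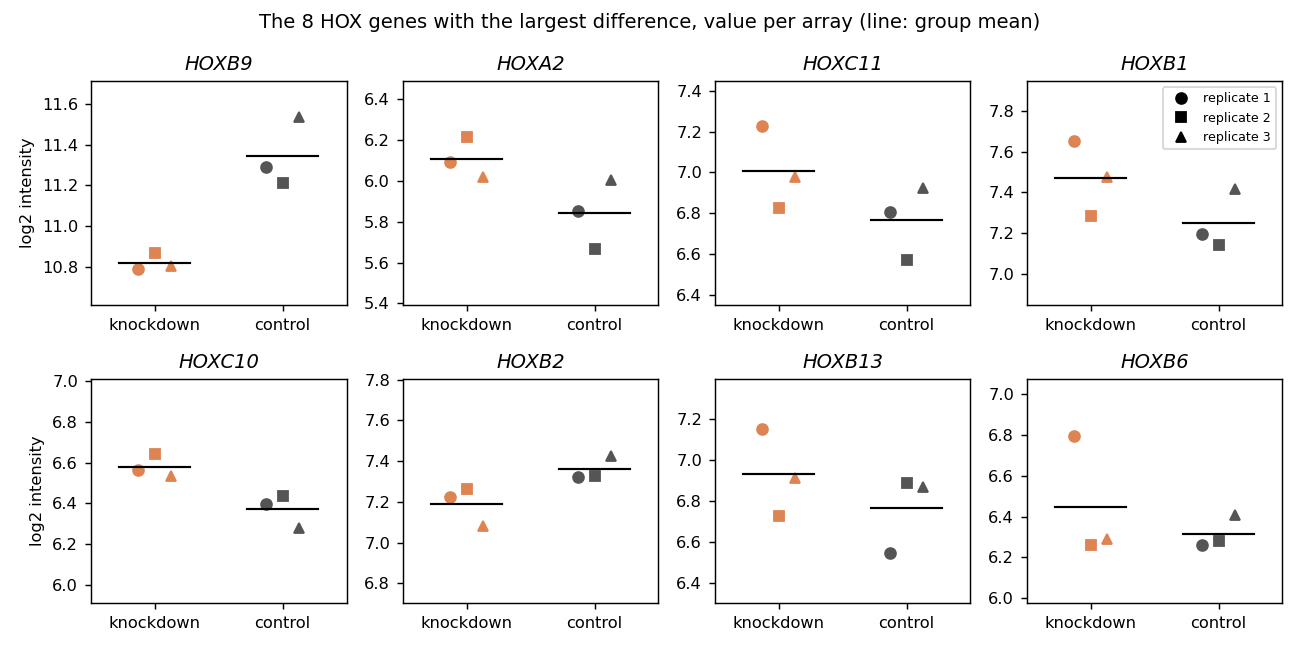
Log2 intensity per array (points, shaped by replicate number) and group mean (lines) of the 8 HOX genes with the largest absolute difference, knockdown left of control, each panel spanning the same range of log2 units. HOXB9 and HOXB2 have all knockdown arrays below control and HOXA2 and HOXC10 all above; the other 4 overlap.

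The median difference was 0.05 over the 6 genes at positions 1 to 3 and 0.06 over the 9 at positions 4 to 8. Over the 12 at positions 9 to 13 it was 0.09. It was 0.03 over all 18417 genes and 0.05 over all genes in the lowest 33.3% of mean values. That lowest part held 3 of the 6, 5 of the 9 and 10 of the 12 members. Without knockdown replicate 1 the medians of the 3 classes were 0.03, 0.0086 and 0.04, and without knockdown replicate 2 they were 0.03, 0.03 and 0.14. Leaving out control replicate 3 gave 0.07, 0.09 and 0.14, and leaving out control replicate 2 gave 0.06, 0.04 and 0.05. Leaving out knockdown replicate 3 gave a median of 0.07 at positions 1 to 3. With the lowest 33.3% of genes left out all 3 were negative, at -0.03, -0.0044 and -0.20. The posterior class held both the fall of HOXB9 and 10 of its 12 members above 0. Of all genes 59.6% were above 0, and of those in the lowest 33.3% of mean values 68.6%. Outside the lowest 33.3% of mean values there were 2 posterior genes, HOXB9 at -0.52 and HOXD13 at 0.12.

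Most members had small positive differences and did not pass. A positive difference was found for 20 of 27 members, against 59.6% of all genes, and the median was 0.07. The count was 19 after quantile normalization, against 58.4% of all genes, and 19 after median centring, against 53.4%. It was 16 without knockdown replicate 1, against 54.9%, and 23 without control replicate 3, against 58.4%. In the lowest 33.3% of mean values 16 of 18 members were positive with a median of 0.09, where 68.6% of all such genes were positive and their median was 0.05. Above that bound 4 of 9 members were positive with a median of -0.02. Every knockdown array was above every control array for 4 members, beside 14.3% of all genes, and below for 2, beside 12.7% of all genes. Neither count stands away from its share over all genes.

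Single arrays moved with these values. Knockdown replicate 1 was the highest of the 6 arrays for 12 of the 27 members and control replicate 3 for 8, while knockdown replicate 3 and control replicates 1 and 2 were highest for none. Relative to each gene's mean over the 6 arrays, the median member lay at 0.10, -0.02 and 0.02 on knockdown replicates 1 to 3 and at -0.08, -0.05 and 0.05 on control replicates 1 to 3. All genes in the lowest 33.3% of mean values showed an elevation of knockdown replicate 1 as well, with a median of 0.09, and 43.4% of them were highest on that array. Without knockdown replicate 1 the median difference of the members was 0.03, and the medians of the HOXB and HOXD clusters were -0.01 and -0.0098. Without control replicate 3 the median over members was 0.11.

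**Figure D3:**
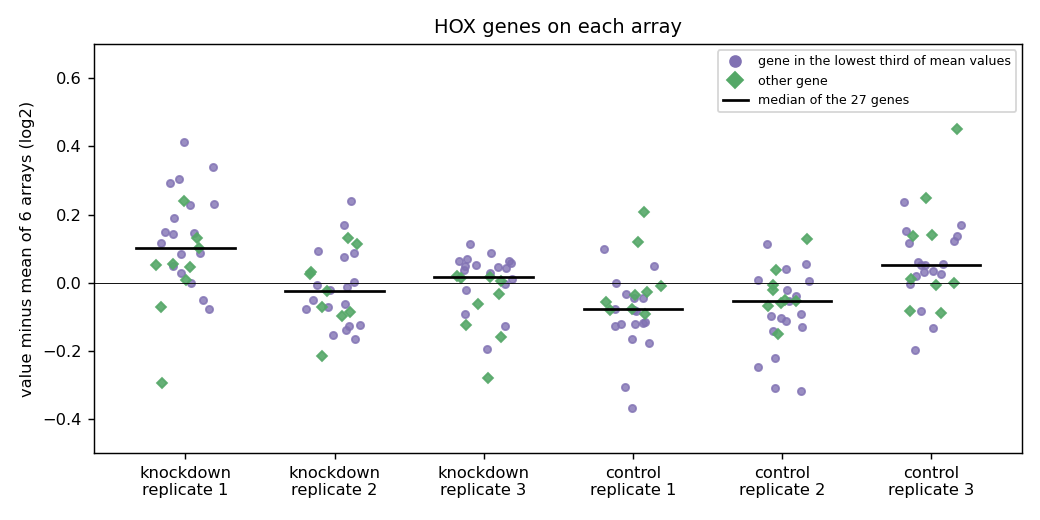
Value of each of the 27 HOX genes minus its mean over the 6 arrays (log2, vertical axis) on each array, knockdown left of control, with circles for genes in the lowest 33.3% of mean values, diamonds for the others and lines for the median. The median is highest on knockdown replicate 1, at 0.10, and lowest on control replicate 1, at -0.08.

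For the members that did not pass, the intervals bound the change in array value. All 26 had a 95% interval inside a 1.5-fold change in either direction, 23 of these intervals included 0, and those of HOXA2, HOXB2 and HOXC10 did not. The intervals are not adjusted for the number of genes.

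The neighbours of the clusters were compared to see whether HOXB9 lay in a wider stretch of lower values. Of the 20 measured genes nearest to the HOXB cluster, 10 on each side, none passed (limma), and their median was 0.05. An unadjusted p under 0.05 was found for 2 of the 20, beside 19.4% of all genes. Positive differences were found for 13 of the 20, beside 59.6% of all genes. SKAP1, an adaptor gene and the nearest measured one before HOXB1, had the largest absolute value among the 20, -0.27 (limma, adjusted p = 0.116). PRAC1, which lies between HOXB9 and HOXB13, differed by 0.06. None of the genes measured on either side of HOXB9 passed.

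Around the other clusters, ZNF385A, a zinc finger gene near HOXC, rose by 0.35 ± 0.06 (SE; limma, adjusted p = 0.0271), and GPR155, a membrane protein gene near HOXD, fell by 0.30 ± 0.06 (SE; limma, adjusted p = 0.0397). These were the 2 genes that passed among the 80 neighbours of the 4 clusters, beside 3.05% of all genes. The median of the 80 was 0.03. ZNF385A missed the threshold in 5 of the 6 fits with 1 array left out and GPR155 in all 6.

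**Figure D4:**
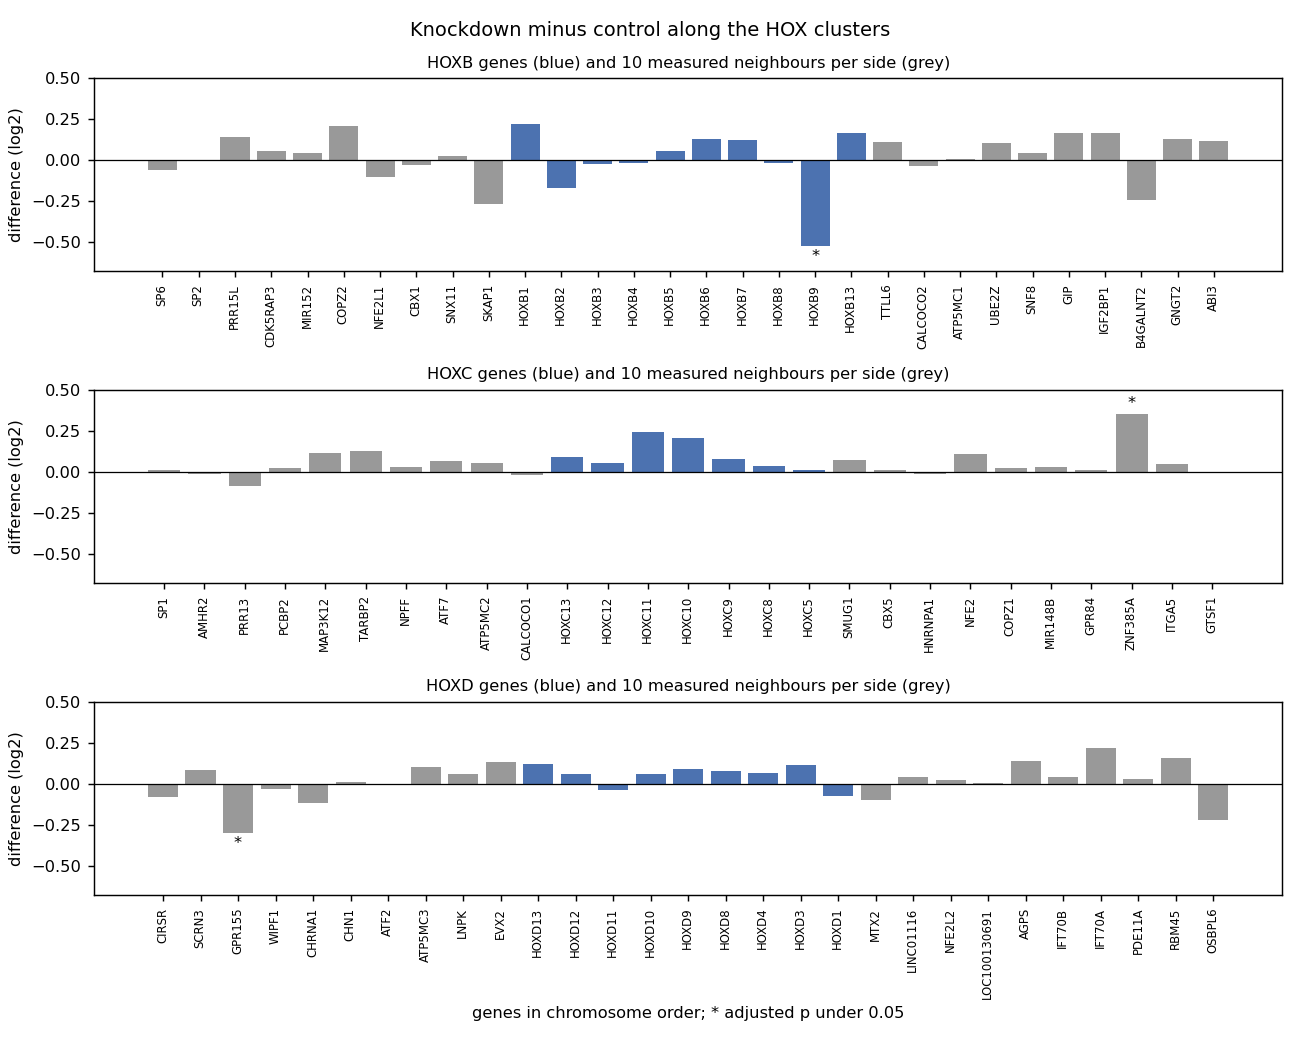
Knockdown minus control difference (log2, bars) of the HOX genes (blue) and of 10 measured neighbours on each side (grey) in chromosome order for HOXB, HOXC and HOXD, with an asterisk for an adjusted p under 0.05. HOXB9 at -0.52 stands between HOXB8 at -0.02 and HOXB13 at 0.16; ZNF385A and GPR155 are the marked neighbours.

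Of 26 noncoding RNAs listed for the clusters, 6 were measured here and 20 were not. The measured ones had 0 of 6 calls, beside 3.05% of all genes. An unadjusted p under 0.05 was found for 1 of the 6, beside 19.4% of all genes. Of the 6, 5 lay below the chosen bound on mean values, where signal may not be separable from background. MIR196A1 and MIR196A2, whose mature sequence is printed above, both differed by 0.05, MIR10A by -0.09 and MIR10B by 0.07. HOXB-AS3, transcribed across the HOXB5 and HOXB6 region, read 7.89, 7.80 and 7.96 in the knockdown, against 7.62, 7.65 and 7.75 in control. Its groups did not overlap, and its difference of 0.21 ± 0.07 (SE) did not pass (limma, adjusted p = 0.139). HOXA-AS2 was at 0.12. The array values refer to the probe sets of these genes, not to mature microRNA.

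HOX proteins bind DNA together with PBX and MEIS proteins, the TALE homeodomain cofactors. None of 7 measured cofactor genes passed (limma), 1 had an unadjusted p under 0.05, and the median was 0.10, with MEIS2 at 0.24 (adjusted p = 0.262) and PBX4 at 0.17 (adjusted p = 0.280). Of the MLL complex, elongation and CDX genes that act upstream of HOX, 1 of 15 fell and 14 did not pass, with none higher. Their median was 0.08, and 4 had an unadjusted p under 0.05. Over all genes 1.78% fell, and 19.4% had an unadjusted p under 0.05. The gene that fell was AFF1, a subunit of the super elongation complex and a fusion partner of KMT2A in leukaemia, by 0.34 (limma, adjusted p = 0.0435), and it missed the threshold in each of the 6 fits with 1 array left out. KMT2A itself, the founding MLL enzyme, was at 0.16 (adjusted p = 0.270).

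Retinoic acid is a known inducer of anterior HOX genes. Of 15 measured genes of its pathway 2 rose, beside 1.28% of all genes, none fell and 13 did not pass, with a median of 0.10. An unadjusted p under 0.05 was found for 4 of the 15, beside 19.4% of all genes. The list was not tested as a set. STRA6, the retinol uptake receptor, read 9.61, 9.53 and 9.51 in the knockdown, against 9.04, 8.98 and 8.64 in control. It rose by 0.67 ± 0.10 (SE; limma, adjusted p = 0.0188), with every knockdown array above control. RXRA, the shared partner of nuclear receptors, rose by 0.29 ± 0.06 (SE; limma, adjusted p = 0.0406), also without overlap. ALDH1A2, an enzyme of retinoic acid synthesis, read 7.17, 7.08 and 7.06 in the knockdown, against 7.38, 7.37 and 7.81 in control, so every knockdown array was below control. Its difference was -0.41 ± 0.12 (SE; limma, adjusted p = 0.107), and it lay in the lowest 33.3% of mean values. CRABP2, a retinoic acid binding protein gene, was at -0.27 with overlapping groups (limma, adjusted p = 0.270). STRA6 passed in 3 of the 6 fits with 1 array left out and RXRA in none.

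Among 30 other homeobox genes of the same ANTP class, 1 fell, beside 1.78% of all genes, none rose and 29 did not pass. Their median was 0.07, and 5 had an unadjusted p under 0.05, beside 19.4% of all genes. NKX2-1, a lung and thyroid lineage factor, read 7.44, 7.28 and 7.15 in the knockdown and 7.78, 7.67 and 7.97 in control, and fell by 0.52 ± 0.10 (SE; limma, adjusted p = 0.0380). It missed the threshold in each of the 6 fits with 1 array left out (adjusted p from 0.0593 to 0.148). EVX1 and EVX2, which flank the HOXA and HOXD clusters, were at 0.09 and 0.14.

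Promoter sequence of the members was described from RefSeq (GRCh38.p14), which gave the 250 bases before the start for 11 of the 27. Apart from HOXA2, HOXB1 and HOXC5 these were HOXD genes, and HOXB9 was not among them. The median number of CpG sites in these windows was 21.0, ranging from 4 for HOXD4 to 31 for HOXD1, against a median of 11.0 over 35116 promoters. The letters TGATNNAT, a site form bound by PBX with HOX proteins, were searched on both strands and were found in 3 of the 11, those of HOXA2, HOXB1 and HOXD11, and in 6.47% of all promoters. HOXA2 and HOXB1 are printed because they are the ones among the 8 members with the largest differences whose window was at hand, and because such a site upstream of Hoxb1 is well known in the mouse. Capitals mark the match.
HOXA2 (chr7:27102684-27102933, minus strand): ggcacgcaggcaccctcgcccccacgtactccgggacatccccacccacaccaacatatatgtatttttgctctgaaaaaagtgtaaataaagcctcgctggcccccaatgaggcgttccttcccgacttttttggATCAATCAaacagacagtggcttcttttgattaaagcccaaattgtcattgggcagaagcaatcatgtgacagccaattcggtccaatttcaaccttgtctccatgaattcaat
HOXB1 (chr17:48531012-48531261, minus strand): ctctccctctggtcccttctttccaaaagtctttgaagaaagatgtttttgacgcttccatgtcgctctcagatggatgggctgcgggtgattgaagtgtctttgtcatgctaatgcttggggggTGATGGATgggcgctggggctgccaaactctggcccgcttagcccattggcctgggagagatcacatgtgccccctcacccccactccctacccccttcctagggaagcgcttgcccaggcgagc
The HOXB1 match reads on the gene's strand and that of HOXA2 on the other. Both genes had positive differences that did not pass, at 0.27 and 0.22, while HOXD11 was at -0.04. A match describes the letters in the window, and binding was not measured here.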

How the data were processed

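Total RNA of 6 MDA-MB231 samples, 3 of the G9a knockdown clone and 3 of control cells, was biotin-labelled for single-colour arrays, per the labels. The log2 values were deposited by the authors with 1 value per probe set and array; their software is not given in the sources used here, and the log base was taken from the range, 2.13 to 14.8. Of 33297 probe sets, 19460 carried 1 gene symbol in the platform annotation, updated through RefSeq (GRCh38.p14), and the probe set with the highest mean over the 6 arrays was kept per gene. This left 18417 genes, each given a two-sided limma test without covariates (lmFit with eBayes; limma 3.58.1 under R 4.3.3), with Benjamini-Hochberg adjustment over all of them and a threshold of 0.05. Alternatives were quantile normalization, median centring, leaving out the lowest 33.3% of genes, an intensity trend, array weights, other handling of probe sets, a replicate block and leaving out arrays. Precision is limited by 3 arrays per group.

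Members, gene lists and the rule for named genes were chosen with earlier results of these data known. The rule took every member, EHMT2, members of each list past the threshold or the 2 largest otherwise, and the extreme neighbours, of which the largest were used; 1 is not reported here. Other genes were named after their values were seen: ALDH1A2, CRABP2, KMT2A, EVX1, EVX2, PRAC1, CDH1, CDH5 and the other markers. The labels do not say whether arrays with the same replicate number belong together, and the main test did not pair them. Deviations from the group means correlated at -0.246, 0.122 and 0.0877 between arrays of the same number. With 3 arrays per group these values cannot decide whether the arrays were paired. Neighbours came from the RefSeq gene order alone, as the array data name no genome build. Promoter and microRNA sequences are those of RefSeq.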

Additional observations from a re-analysis of the deposited data

How the results depend on the processing

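HOXB9 stayed negative under all 15 alternatives, from -0.59 to -0.42, and 16 of 27 members kept their sign throughout. The number of HOX genes called was 1, and 0 to 1 with 1 array left out; it was 5 with array weights and 0 with the replicate block, under which HOXB9 had an adjusted p of 0.0557 (limma). Over all genes 562 passed, 972 with the lowest 33.3% left out, 1083 with an intensity trend, 3328 with array weights, 217 with the replicate block, 343 without both knockdown replicate 1 and control replicate 3 (chosen after seeing the data), and 44 to 535 with 1 array left out. Fits on fewer arrays or with the block have fewer residual degrees of freedom. Leaving out the lowest 33.3% of genes, which keeps 9 members, moved the median of HOX genes to -0.019, of HOXC to 0.010 and of positions 9 to 13 to -0.20. It also turned the medians of HOXB (-0.023), positions 1 to 3 (-0.026) and positions 4 to 8 (-0.0044) negative. With 1 array left out the median of HOXD ran from -0.0098 to 0.14. The SD between arrays of each set's mean value, pooled over knockdown and control, was 0.058 to 0.090.

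Sign changes were found for genes that did not pass. With array weights HOXB4 was at 0.034, HOXB8 at 0.0093, HOXC5 at -0.015, HOXC8 at -0.031, HOXC13 at -0.014 and HOXD11 at 0.038. HOXC5 was at -0.013 after quantile normalization and at -0.010 after median centring. Without both knockdown replicate 1 and control replicate 3 HOXB4 was at 0.077, HOXC5 at -0.030, HOXD10 at -0.075 and HOXD11 at 0.042. With 1 array left out the ranges were -0.070 to 0.047 for HOXB4, -0.041 to 0.23 for HOXB6, -0.076 to 0.044 for HOXB8, -0.053 to 0.075 for HOXC5, -0.017 to 0.11 for HOXC8, -0.070 to 0.17 for HOXC13, -0.16 to 0.033 for HOXD1, -0.018 to 0.18 for HOXD8, -0.023 to 0.15 for HOXD10, -0.083 to 0.013 for HOXD11 and -0.050 to 0.19 for HOXD12. The cause of these changes was not tested.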
